A study of Mus musculus with 16 samples.

Results

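The genes described here are 9 genes of type I interferon signalling and antiviral RNA sensing, namely Ifnar1, Stat2, Irf9, Irf1, Irf3, Irf7, Ifih1, Ddx58 and Eif2ak2. They were chosen by name from the 55385 genes of each library, and 8 of the 9 passed the filter on low counts that left 17222 genes for testing. Irf7 did not pass it and has no result in the main fit. Its values are given with an exact permutation test and with fits that did not filter it out. RNA was measured in 16 libraries of primary hippocampal cultures, made from newborn C57BL/6N mice by papain dissociation and therefore holding glia beside neurons. All 16 cultures had been infected with a recombinant adeno-associated virus that carried an shRNA and a GFP reporter driven by the chicken beta-actin promoter, so the controls carry a virus and an shRNA too, and no uninfected culture was used here. The 4 groups of 4 libraries were Control-shRNA at baseline, Control-shRNA after 4 h of bicuculline at 50 µM, Dnmt3a1-shRNA at baseline and Dnmt3a1-shRNA after the same bicuculline treatment. Bicuculline blocks GABA-A receptors and makes the network fire in bursts, and the Dnmt3a1-shRNA targets the long isoform of the DNA methyltransferase Dnmt3a. The labels name no construct, and the study describes 1 knockdown construct for these cultures, so effects of that sequence and of the lower Dnmt3a level cannot be told apart. According to a figure legend of the study, the 4 replicates of a condition were independent neuronal preparations. It does not say how preparations relate to replicate numbers across conditions.

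Type I interferons bind a receptor of the subunits Ifnar1 and Ifnar2, which activates the kinases Jak1 and Tyk2. These phosphorylate STAT proteins such as Stat2, which joins Irf9 in the factor ISGF3, and this factor binds interferon-stimulated response elements (ISRE) in the promoters of antiviral genes. Viral double-stranded RNA in the cytoplasm is recognised by the helicases Ddx58 (RIG-I) and Ifih1 (MDA5), which signal to Irf3 and Irf7 and so to new interferon, and by Eif2ak2 (PKR), a kinase that halts translation. Neurons as well as glia carry the receptor and can respond to type I interferon.

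Promoter sequence was read from RefSeq windows of 250 bases before to 50 bases after each gene start on GRCm38.p6, the build of the files, and all 9 genes had a window, 11 windows in all. The core of the ISRE was searched on both strands as GAAA, any 2 bases and GAAA again. It stood in the windows of Stat2, Ifih1, Ddx58 and Eif2ak2 and in 3.44% of the 32851 windows of all genes. The letters TTCNNNGAA, the core of the gamma-activated site (GAS) that STAT dimers bind, were searched likewise and stood in those of Irf1, Ifnar1 and Eif2ak2 and in 8.30% of all windows. These stretches are shown because they set the genes with an ISRE beside those without, with 8 bases on each side, the match in capitals and each read 5′ to 3′ along the gene's own strand. No match overlapped another, and the GAS of Eif2ak2 lay 178 bases before its start. Distances run from the RefSeq start to the first base of the match, and the match of Ifnar1 runs past that start. RefSeq starts can differ from the gene coordinates given further below, and for Stat2 and Ifnar1 they lie before them.
Stat2, ISRE on the opposite strand, 222 bases before the start, chr10:128270268-128270293, plus strand: caccctggTTTCAGTTTCctttccct
Ifih1, ISRE, 32 bases after the start, chr2:62646206-62646231, minus strand: agagaatcGAAACAGAAAccgatctg
Ddx58, ISRE on the opposite strand, 2 bases after the start, chr4:40239806-40239831, minus strand: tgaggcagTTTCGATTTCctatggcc
Eif2ak2, ISRE, 18 bases after the start, chr17:78882537-78882562, minus strand: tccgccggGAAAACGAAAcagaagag
Irf1, GAS, 90 bases before the start, chr11:53769916-53769940, plus strand: agcctgatTTCCCCGAAatgatgag
Ifnar1, GAS, 5 bases before the start, chr16:91485202-91485226, plus strand: cgggggcgTTCACGGAAggggcggg
The cyclic AMP response element TGACGTCA, in 1.79% of all windows, and the AP-1 element TGANTCA, in 7.81%, were found in none of the 11. A match of letters describes the sequence and is no measure of binding, and a missing match says only that these letters are not in the window.

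The libraries held between 28912480 and 29586138 estimated counts, so depth differed little between groups. No 2 libraries of a group agreed within sampling noise, with a chi-square per degree of freedom of 7.14 to 39.8 over 24 pairs. Dnmt3a lay at 293 to 338 CPM (counts scaled to the TMM-adjusted library size) in the Control-shRNA libraries and at 39.4 to 48.0 CPM in the Dnmt3a1-shRNA libraries, and Fos, an immediate early gene, at 7.54 to 19.2 CPM at baseline and 726 to 1276 CPM with bicuculline. Fos was itself higher with the Dnmt3a1-shRNA at baseline (log2 fold change 0.58, edgeR adjusted p = 0.0437), while with bicuculline its value was 0.37 (edgeR adjusted p = 0.136). The study, which tested with voom and limma rather than edgeR, reports Fos as not altered by the knockdown. The 12 neuronal markers, among them Snap25 and Syt1, summed to 8322 to 10756 CPM per library and 10 astrocyte markers to 729 to 1174 CPM. The share of counts from mitochondrial genes ran from 2.73% to 6.60%, with replicate 1 highest and replicate 3 lowest in each of the 4 groups.

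Of the 8 tested genes, Stat2 alone was called in all 4 comparisons: it fell with bicuculline under both shRNAs and was lower with the Dnmt3a1-shRNA at baseline and with bicuculline. Ifnar1 also fell with bicuculline in the Dnmt3a1-shRNA cultures. The RNA sensors Ifih1, Ddx58 and Eif2ak2 passed in none. A gene was called at a Benjamini-Hochberg adjusted p-value below 0.05 in edgeR's quasi-likelihood test over all 17222 genes, together with an absolute log2 fold change above 0.5. With bicuculline in Control-shRNA 1 of the 8 tested genes was called, where the background was 21.9% of all genes tested. In Dnmt3a1-shRNA it was 2 of 8, with a background of 25.8%. For the knockdown it was 1 of 8 at baseline, beside 5.83% of all genes, and 1 of 8 with bicuculline, beside 5.89%. For bicuculline the share of called genes was thus at or below the background, and for the knockdown it rests on Stat2 alone. By the adjusted p alone, bicuculline passed for 3 of 8 in Control-shRNA beside 41.4% of all genes and for 3 of 8 in Dnmt3a1-shRNA beside 46%, and the knockdown for 3 of 8 at baseline beside 16.3% and 2 of 8 with bicuculline beside 17.7%. The libraries of the groups did not overlap for 3 of 8 genes with bicuculline in Control-shRNA, all lower, beside 39.7% of all genes (21.4% lower), and for 2 of 8 in Dnmt3a1-shRNA, both lower, beside 40.4% (22.1% lower). For the knockdown they did not overlap for 1 gene higher and 1 lower at baseline, beside 9.62% and 10.3%, and with bicuculline for 0 higher and 2 lower, beside 9.5% and 11.4%. The medians of the log2 fold changes of the 8 genes were -0.036 and 0.11 for bicuculline and 0.0014 and -0.0071 for the knockdown, against medians of 0.0057, -0.0080, 0.0070 and -0.0057 over all genes. The comparisons share groups with one another, so their values stand side by side and were not set against each other. Scaled by library size alone, the median over all genes moved to -0.15 for bicuculline in Control-shRNA, and the calls over all genes moved from 1854 higher and 1911 lower to 1365 and 3032. The knockdown at baseline moved likewise from 303 higher and 701 lower to 159 and 960. Fold changes are therefore to be read against the TMM scaling used here.

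**Figure D1:**
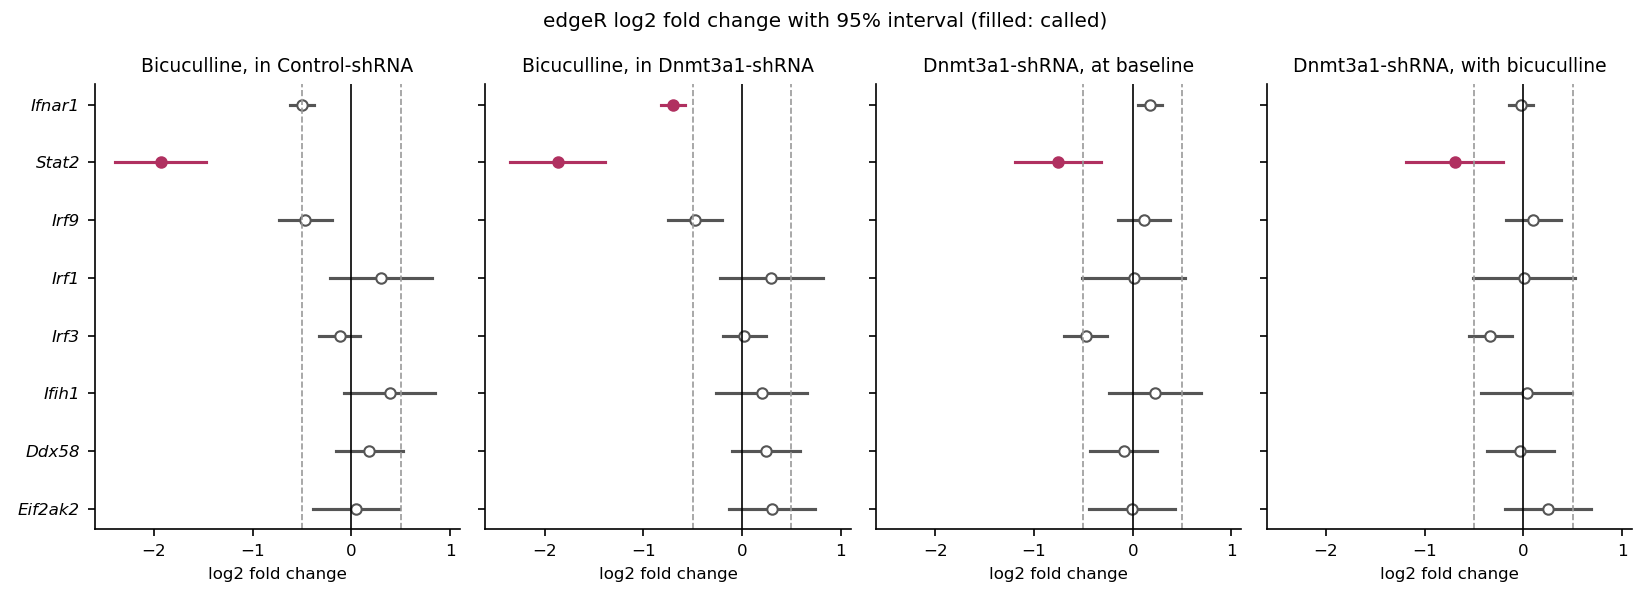
Log2 fold change (x axis) of the 8 tested genes in the 4 comparisons, with the 95% interval of edgeR's estimate. Filled points are called, and dashed lines mark a log2 fold change of 0.5 in either direction. Stat2 lies left of these lines in all 4 panels, at -1.93, -1.87, -0.76 and -0.69, while Ifnar1 in Control-shRNA sits on the line at -0.50.

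Levels were compared between genes in TPM, the deposited values that are scaled for transcript length. In Control-shRNA at baseline Stat2 was highest with 27.3 ± 4.56 TPM (SD, n = 4), followed by Ifnar1 with 20.9 ± 0.986 and Irf3 with 19.7 ± 2.96 TPM. The ranges of these 3 neighbours overlapped over the libraries. Irf9 followed with 6.38 ± 0.679 TPM and Irf1 with 3.50 ± 1.18 TPM, each apart from the gene before it. The sensors Ddx58 at 1.55 ± 0.259 and Eif2ak2 at 1.44 ± 0.487 TPM overlapped, and Ifih1 at 0.425 ± 0.0853 TPM overlapped with Irf7 at 0.319 ± 0.0476 TPM. The receptor and the factors Stat2 and Irf3 were thus the most abundant of the 9 and the sensors were scarce. After bicuculline in Control-shRNA the order changed at the top, where Irf3 with 13.5 ± 0.920 and Ifnar1 with 12.7 ± 1.02 TPM stood above Stat2 with 5.60 ± 0.768 TPM. In Dnmt3a1-shRNA with bicuculline Stat2 reached 3.66 ± 0.499 TPM and overlapped with Irf9 at 3.94 ± 0.825 TPM.

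**Figure D2:**
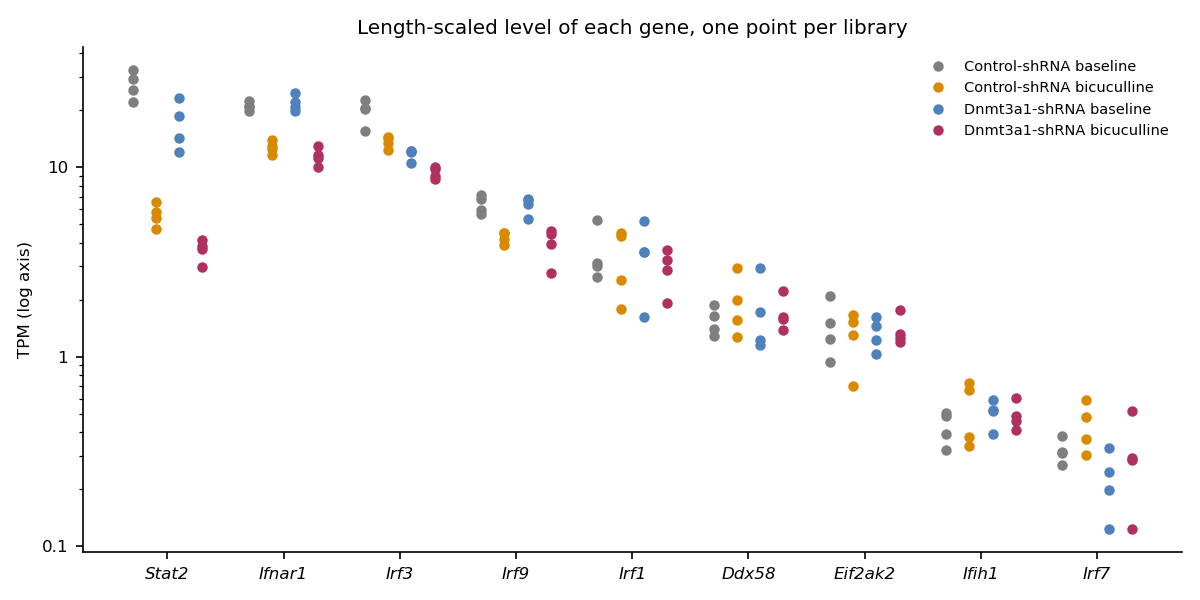
Length-scaled level in TPM (log axis) of each of the 9 genes, with 1 point per library and the 4 groups in different colours. The genes run from Stat2, at 21.9 to 32.5 TPM in Control-shRNA at baseline, to Irf7, at 0.268 to 0.383 TPM, and the bicuculline groups of Stat2 and Ifnar1 lie below their baseline groups.

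The ligands of the pathway were near absence in the counts. Of 13 interferon genes, among them Ifnb1 and 6 interferon alpha genes, 10 had no count in any library. The others reached at most 3 counts in a library (Ifnz), 2 (Ifng) and 1 (Ifne), which is no more than the 3 counts that a count of 0 allows. At this depth 3 counts correspond to 0.0913 to 0.119 CPM, and these limits cover counting error only. No interferon gene passed the filter, so no ligand was tested.

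Ifnar1, the signalling subunit of the type I interferon receptor (chromosome 16, 91485238 to 91507441, plus strand), was lower with bicuculline under both shRNAs and was called in Dnmt3a1-shRNA. In Control-shRNA at baseline its 4 libraries held 34.8, 34.9, 33.7 and 35.4 CPM, and with bicuculline 23.4, 25.3, 26.3 and 23.1 CPM. In Dnmt3a1-shRNA they held 40.2, 36.6, 39.8 and 40.4 CPM at baseline and 23.7, 24.5, 24.8 and 23.5 CPM with bicuculline. All bicuculline libraries lay below all baseline libraries, and within each group the spread was small. In Dnmt3a1-shRNA the log2 fold change was -0.70 ± 0.058 (SE, 95% interval -0.82 to -0.58, edgeR with Benjamini-Hochberg adjusted p = 2.72e-08), a level at 61.6% of baseline. In Control-shRNA it was -0.50 ± 0.058 (interval -0.62 to -0.38, edgeR adjusted p = 2.03e-06), or 70.7% of baseline, which lay just inside the fold threshold and was not called. Ifnar1 crossed that threshold in 8 of 16 fits with a library left out, with values of -0.54 to -0.48: without Control-shRNA baseline replicate 3, Control-shRNA bicuculline replicates 2 or 3, Dnmt3a1-shRNA baseline replicate 4 or any of the 4 Dnmt3a1-shRNA bicuculline libraries. The difference between the 2 responses had a log2 value of -0.20 (interval -0.37 to -0.029) with an unadjusted p of 0.0249 and an adjusted p of 0.949 in the interaction test of edgeR. At baseline the Dnmt3a1-shRNA libraries were all above the Control-shRNA libraries, by a log2 fold change of 0.18 ± 0.057 (edgeR adjusted p = 0.0421), which is under the fold threshold. With bicuculline the ranges of the 2 shRNAs overlapped, with a log2 difference of -0.024 (interval -0.15 to 0.099). Ifnar2, the partner subunit, was at 7.96 ± 0.430 CPM in Control-shRNA at baseline, and fell with bicuculline in Dnmt3a1-shRNA from 7.14 ± 0.139 to 4.79 ± 0.663 CPM (log2 fold change -0.58, edgeR adjusted p = 7.39e-05). In Control-shRNA its value was -0.26 (edgeR adjusted p = 0.0334).

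**Figure D3:**
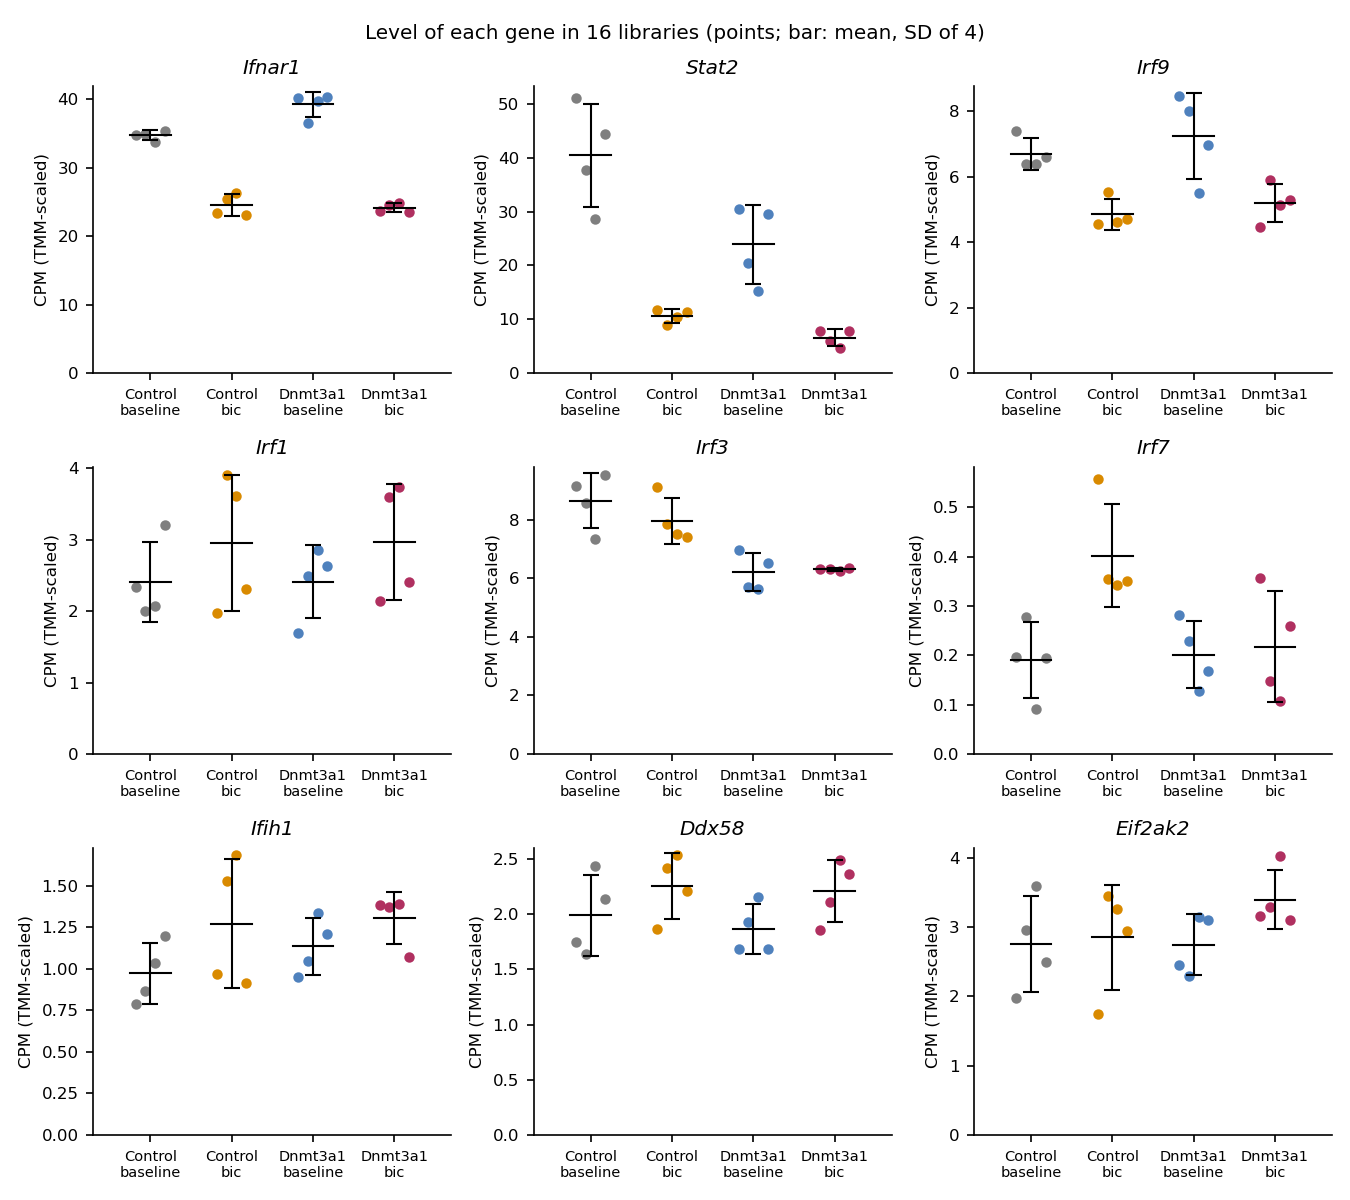
CPM (y axis, from 0) of the 9 genes in the 16 libraries by group, with 1 point per library and the mean with the SD of 4 libraries as bars. Stat2 and Ifnar1 lie lower with bicuculline under both shRNAs, from group means of 40.4 and 34.7 CPM to 10.6 and 24.5 CPM in Control-shRNA, while the points of Irf1, Ifih1, Ddx58 and Eif2ak2 overlap between groups.

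Stat2, the STAT protein particular to type I and type III interferon signalling (chromosome 10, 128270559 to 128292849, plus strand), held 51.0, 37.7, 28.6 and 44.4 CPM in Control-shRNA at baseline and 11.8, 8.88, 10.5 and 11.3 CPM with bicuculline. Every bicuculline library lay well below every baseline library. The log2 fold change was -1.93 ± 0.22 (interval -2.39 to -1.47, edgeR with Benjamini-Hochberg adjusted p = 1.54e-06), which is 26.2% of the baseline level and the 26th lowest of the 17222 values. In Dnmt3a1-shRNA the libraries held 30.4, 20.5, 15.2 and 29.6 CPM at baseline and 7.88, 6.03, 4.56 and 7.75 CPM with bicuculline. These groups were apart as well, with a log2 fold change of -1.87 ± 0.23 (interval -2.35 to -1.39, edgeR adjusted p = 2.72e-06) and a remaining level of 27.4%. The 2 responses differed by 0.064 on the log2 scale, with an interval of -0.59 to 0.72. In bulk RNA fewer cells of a type and less RNA per cell cannot be told apart. The neuronal marker sum lay at 8504 to 9378 CPM in Control-shRNA at baseline and 9969 to 10734 CPM with bicuculline. Of its 12 markers 3 were themselves called higher and 1 lower with bicuculline there, so the sum does not measure neuron number. The part of cell number in the Stat2 values was not tested.

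Between the shRNAs Stat2 was lower with the Dnmt3a1-shRNA. At baseline the log2 fold change was -0.76 ± 0.21 (interval -1.19 to -0.32, edgeR adjusted p = 0.0178), or 59.1% of Control-shRNA. However, the ranges of 15.2 to 30.4 CPM in Dnmt3a1-shRNA and 28.6 to 51.0 CPM in Control-shRNA overlapped. An exact two-sided permutation test gave p = 0.0857 here, and 0.237 after Benjamini-Hochberg adjustment over 36 such tests. The spread followed the replicate number: replicate 1 was highest in each of the 4 groups, and replicate 3 lowest in 3 of them. Within each number the Dnmt3a1-shRNA library was the lower at baseline, by 0.75, 0.88, 0.92 and 0.59 on the log2 scale for replicates 1 to 4. The share of mitochondrial counts was likewise highest in replicate 1 and lowest in replicate 3, and its part in the Stat2 values was not tested. When the fit had a block for replicate number, the baseline value was -0.77 (edgeR adjusted p = 1.72e-05). Without Control-shRNA baseline replicate 1, Control-shRNA baseline replicate 4 or Dnmt3a1-shRNA baseline replicate 2 the call was lost, and over the 16 fits with a library left out the log2 fold change ran from -0.89 to -0.59 and the adjusted p from 0.00847 to 0.0683. With bicuculline the value was -0.69 ± 0.23 (interval -1.18 to -0.20, edgeR adjusted p = 0.0478), with no overlap between 8.88 to 11.8 and 4.56 to 7.88 CPM. The Dnmt3a1-shRNA library was the lower within each of the 4 replicate numbers here too, by 0.58, 0.56, 1.20 and 0.54 on the log2 scale, and the block for replicate number gave an edgeR adjusted p of 0.000282. This call depended on the setting. It was kept in the alternatives tried with the same fold threshold, apart from those that follow. Under voom with limma, the test that the study used, here with the filter and scaling of the main fit, it was lost (adjusted p = 0.10). It was also lost with DESeq2's size factors (edgeR adjusted p = 0.0538), on log2(TPM + 1) (limma adjusted p = 0.0675) and in 8 of the 16 fits with a library left out. Those were the fits without Control-shRNA baseline replicates 2 or 4, Control-shRNA bicuculline replicates 1, 3 or 4, Dnmt3a1-shRNA baseline replicate 2, or Dnmt3a1-shRNA bicuculline replicates 2 or 3, and the adjusted p ran up to 0.121.

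**Figure D4:**
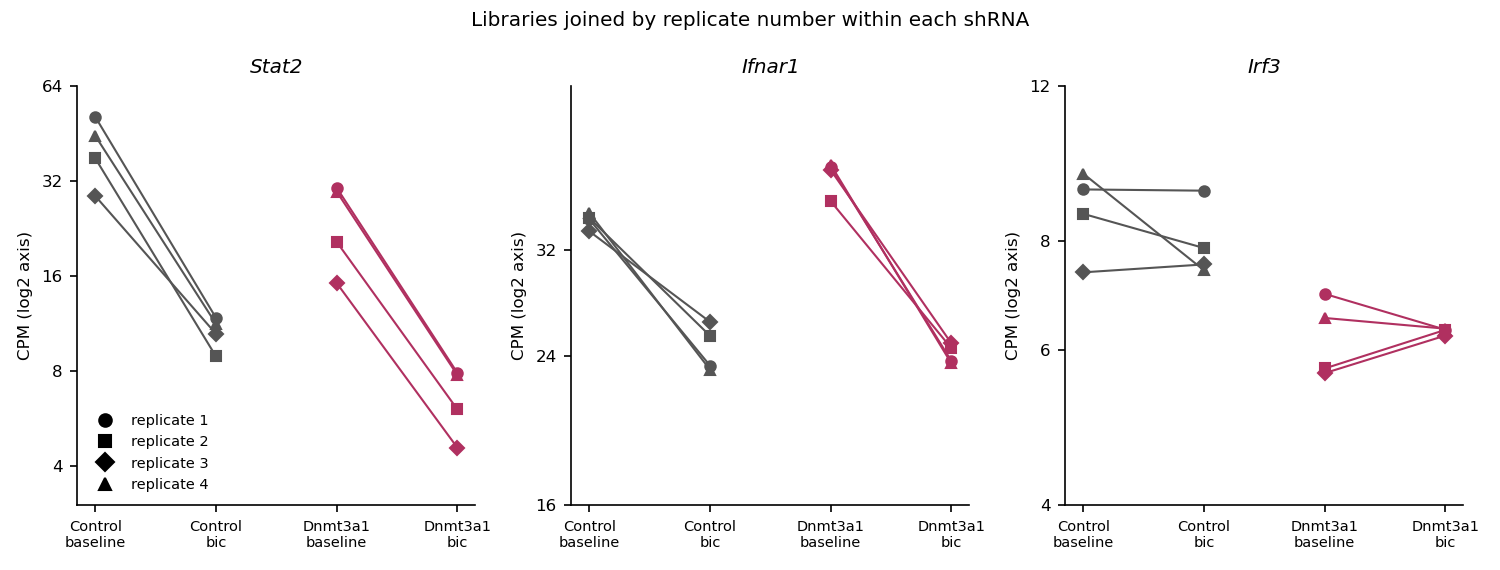
CPM (log2 axis) of Stat2, Ifnar1 and Irf3, with the baseline and bicuculline libraries of the same replicate number joined by a line within each shRNA. All 8 lines of Stat2 and of Ifnar1 slope down, and the Dnmt3a1-shRNA points of Irf3, at 5.65 to 6.96 CPM, lie below its Control-shRNA points, at 7.36 to 9.53 CPM.

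Irf9, which gives the ISGF3 complex its DNA binding (chromosome 14, 55603571 to 55610030, plus strand), showed a smaller difference with bicuculline. It held 7.41, 6.39, 6.39 and 6.58 CPM in Control-shRNA at baseline and 4.54, 5.54, 4.60 and 4.70 CPM with bicuculline, with no overlap. The log2 fold change was -0.47 ± 0.13 (interval -0.74 to -0.19, edgeR adjusted p = 0.00749), short of the fold threshold, which it passed without Control-shRNA bicuculline replicate 2 (-0.54). In Dnmt3a1-shRNA 8.47, 8.01, 5.49 and 6.97 CPM stood against 4.47, 5.89, 5.13 and 5.28 CPM, where the lowest baseline library lay within the bicuculline range. There the value was -0.48 ± 0.13 (edgeR adjusted p = 0.00542), and it passed the fold threshold without Dnmt3a1-shRNA baseline replicate 3 or Dnmt3a1-shRNA bicuculline replicate 2, with a range of -0.59 to -0.39 over the 16 fits. The knockdown values were 0.11 (interval -0.15 to 0.38) at baseline and 0.10 (interval -0.18 to 0.38) with bicuculline. Exons of Irf9 overlap exons of Rnf31 on the same strand, so reads there can be divided between the 2 genes by the quantification.

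Irf1, a factor that activates interferon and antigen presentation genes (chromosome 11, 53770014 to 53778374, plus strand), held 2.34, 2.01, 2.07 and 3.21 CPM in Control-shRNA at baseline and 1.97, 3.91, 3.60 and 2.32 CPM with bicuculline. These groups overlapped, with a log2 fold change of 0.30 (interval -0.22 to 0.82, edgeR adjusted p = 0.367). The other 3 comparisons of Irf1 had values of 0.30, 0.0093 and 0.0099, and intervals that reached from -0.51 to 0.53 for the knockdown at baseline. Irf1 shares exon positions with Gm17334 on the opposite strand.

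Irf3, the factor that the RNA sensors activate first (chromosome 7, 44997648 to 45002848, plus strand), had lower counts with the Dnmt3a1-shRNA. It held 9.15, 8.58, 7.36 and 9.53 CPM in Control-shRNA and 6.96, 5.72, 5.65 and 6.53 CPM in Dnmt3a1-shRNA at baseline, with no overlap. The log2 fold change was -0.48 ± 0.10 (interval -0.69 to -0.26, edgeR adjusted p = 0.00341), which is 71.8% of Control-shRNA and under the fold threshold. It passed that threshold without Control-shRNA baseline replicate 3 or Dnmt3a1-shRNA baseline replicates 1 or 4, over a range of -0.55 to -0.43. On the log2(TPM + 0.1) scale the knockdown value of Irf3 was -0.74 (limma adjusted p = 0.000371), from 19.7 ± 2.96 to 11.7 ± 0.813 TPM, past the fold threshold. The median of all genes on that scale was -0.10. With bicuculline 9.12, 7.85, 7.52 and 7.40 CPM stood against 6.33, 6.33, 6.24 and 6.35 CPM, again apart, with a value of -0.34 ± 0.10 (edgeR adjusted p = 0.0307). On the log2(TPM + 0.1) scale it was -0.53 (limma adjusted p = 0.00503), where the median of all genes was -0.098. For bicuculline the count values were -0.12 (interval -0.33 to 0.092) in Control-shRNA and 0.023 (interval -0.19 to 0.24) in Dnmt3a1-shRNA. On the TPM scale Irf3 went from 15.5 to 22.6 TPM at baseline to 12.3 to 14.3 TPM with bicuculline in Control-shRNA, with no overlap, a difference of -0.53 on the log2(TPM + 0.1) scale (limma adjusted p = 0.00106) where the median of all genes was -0.19. Counts and length-scaled levels of Irf3 thus differed in what they showed for bicuculline, and the cause was not tested. Its exons overlap those of Bcl2l12 on the opposite strand, and no source used here says whether the counting used strand.

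Irf7, which amplifies interferon production and is itself a target of ISGF3 (chromosome 7, 141262706 to 141266481, minus strand), was scarce. Its libraries held 6, 9, 3 and 6 counts in Control-shRNA at baseline and 15, 10, 10 and 10 with bicuculline. In CPM these were 0.0913 to 0.278 against 0.343 to 0.558, so the groups were apart, the higher being bicuculline. In Dnmt3a1-shRNA 8, 7, 4 and 5 counts at baseline stood against 9, 4, 3 and 7 with bicuculline, and these overlapped. An exact two-sided permutation test gave p = 0.0286 in Control-shRNA, the smallest that 4 against 4 libraries allow, and 0.103 after Benjamini-Hochberg adjustment over the 36 tests of 9 genes in 4 comparisons. The same smallest p was reached by Stat2, Irf9 and Ifnar1 in that comparison, by Stat2 and Ifnar1 for bicuculline in Dnmt3a1-shRNA, by Irf3 and Ifnar1 for the knockdown at baseline, and by Stat2 and Irf3 for the knockdown with bicuculline, each again at 0.103 after adjustment in this exact permutation test. Without the filter edgeR gave a log2 fold change of 1.05 ± 0.43 (adjusted p = 0.0965) and DESeq2 1.09 (adjusted p = 0.0902). The interaction value without the filter was -0.96 ± 0.64 (unadjusted p = 0.146 in edgeR), so the responses under the 2 shRNAs were not shown to differ. Exons of Irf7 overlap those of Phrf1 on the opposite strand.

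The RNA sensors were at low levels in every group and their groups overlapped in all 4 comparisons. Ifih1, or MDA5 (chromosome 2, 62595798 to 62646255, minus strand), held 0.790, 0.864, 1.03 and 1.20 CPM in Control-shRNA at baseline and 0.968, 1.53, 1.68 and 0.912 CPM with bicuculline. Its log2 fold change was 0.39 with an interval of -0.074 to 0.85 (edgeR adjusted p = 0.174), the largest value among the sensors. Ddx58, or RIG-I (chromosome 4, 40203773 to 40239828, minus strand), ranged over 1.64 to 2.43 CPM at baseline and 1.86 to 2.54 CPM with bicuculline in Control-shRNA, and its value was 0.18 (interval -0.16 to 0.52). Eif2ak2, or PKR (chromosome 17, 78852564 to 78882573, minus strand), ranged over 1.97 to 3.59 and 1.75 to 3.44 CPM, with a value of 0.048 (interval -0.39 to 0.48). In Dnmt3a1-shRNA the bicuculline values of Ifih1, Ddx58 and Eif2ak2 were 0.20, 0.24 and 0.31. For the knockdown they were 0.22, -0.092 and -0.0064 at baseline and 0.033, -0.031 and 0.25 with bicuculline. The intervals of the sensors were wide, for example -0.24 to 0.69 for the knockdown value of Ifih1 at baseline, and its 4 same-numbered pairs differed by 0.26, 0.28, 0.37 and 0.015, all higher in Dnmt3a1-shRNA. Ifih1 had 24 to 49 counts per library, and with the block for replicate number it was not called either. Of the 4 genes with the ISRE letters, Stat2 fell and the 3 sensors were not called. Exons of Eif2ak2 overlap those of Gm26637 and n-R5s29 on the opposite strand.

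Over the other genes of the pathway, 135 genes in lists of ligands, receptors and kinases, sensors, adaptors, transcription factors, interferon-stimulated genes, antigen presentation and negative regulators, 98 were tested. With bicuculline in Control-shRNA 12 rose and 8 fell, which is 12.2% and 8.16% beside 10.8% and 11.1% of all genes. The median log2 fold change of the 98 was 0.11 against 0.0057 over all genes. In Dnmt3a1-shRNA 15 rose and 9 fell, beside 12.6% and 13.2% of all genes. For the knockdown 0 rose and 6 fell at baseline, beside 1.76% and 4.07% of all genes, and 1 rose and 2 fell with bicuculline, beside 2% and 3.9%. No gene of the lists and no gene of the 17222 passed the interaction test in edgeR, where 852 (4.95%) had an unadjusted p below 0.05, against 17 called by DESeq2 over all genes.

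Among receptors and kinases 1 of 7 tested genes rose with bicuculline in Control-shRNA, the kinase Jak2, from 33.6 ± 1.47 to 57.9 ± 4.47 CPM (log2 fold change 0.78 ± 0.085, edgeR adjusted p = 1.01e-06), and the other 6 were not called. Among sensors 1 of 12 rose and 1 fell. Adar, which edits double-stranded RNA, rose from 159 ± 5.26 to 254 ± 12.4 CPM (log2 fold change 0.68), and Nlrx1, a mitochondrial protein of the NLR family, fell from 5.15 ± 0.675 to 2.10 ± 0.329 CPM (-1.29). Among 15 adaptors and kinases Ikbke rose (0.89) and Ikbkg, the regulatory subunit of the IKK complex, fell (-0.68). These 5 genes were also called in the same direction in Dnmt3a1-shRNA, at 0.85, 0.78, -0.97, 1.27 and -0.69.

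Among 9 tested transcription factors 4 rose and 1 fell with bicuculline in Control-shRNA. Nfkb1, a subunit of NF-kB, rose from 10.8 ± 0.249 to 31.6 ± 4.62 CPM (log2 fold change 1.55 ± 0.097, edgeR adjusted p = 1.05e-09) and Stat3, which serves cytokines of the interleukin-6 family, rose by 1.08, from 54.7 ± 1.80 to 116 ± 7.34 CPM. The list's median was 0.48. With the knockdown at baseline Irf2, a repressor that competes with Irf1 for its sites, fell from 12.6 ± 1.15 to 6.58 ± 0.724 CPM (-0.94 ± 0.10, edgeR adjusted p = 7.86e-06), and among the bicuculline libraries it was lower with the Dnmt3a1-shRNA too (-0.62). Stat3 was higher in the knockdown with bicuculline (0.54), at 168 ± 7.22 CPM.

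Among 43 interferon-stimulated genes 32 were tested. With bicuculline in Control-shRNA 2 rose and 3 fell, with a median of 0.13. Cmpk2, a mitochondrial nucleotide kinase, fell from 21.6 ± 1.38 to 10.3 ± 0.871 CPM (-1.07 ± 0.091, edgeR adjusted p = 5.07e-08), Iigp1, an immunity-related GTPase, by 1.02 and Dtx3l, a ubiquitin ligase, by 0.76 on the log2 scale, while Tor3a rose (0.70). With the knockdown at baseline 0 rose and 3 fell, with a median of 0.074. These were Cmpk2 (-0.66), Ifi27 (-0.66) and Samhd1, a nucleotide hydrolase that limits viral replication (-0.55 ± 0.074, from 13.2 ± 0.475 to 9.01 ± 0.535 CPM). With bicuculline the knockdown value of Cmpk2 was -0.86 (edgeR adjusted p = 1.03e-05). Cmpk2 was thus called in all 4 comparisons, as Stat2 was, and fell in Dnmt3a1-shRNA with bicuculline by 1.26. The other 27 tested genes of this list were not called for bicuculline in Control-shRNA.

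Of 11 antigen presentation genes none was called with bicuculline in Control-shRNA (median 0.17), and H2-K1, a class I heavy chain, fell with the knockdown at baseline from 17.0 ± 3.79 to 10.5 ± 2.26 CPM (-0.70 ± 0.22, edgeR adjusted p = 0.0370). In Dnmt3a1-shRNA Tap2, a peptide transporter subunit, rose with bicuculline (0.68). Of 12 negative regulators 3 rose and 2 fell with bicuculline in Control-shRNA. Socs1, an inhibitor of JAK kinases, rose from 1.46 ± 0.350 to 3.66 ± 0.605 CPM (1.32 ± 0.23, edgeR adjusted p = 0.000153), Socs3 by 0.88 and Irf2bp2 by 0.54. Cyld, a deubiquitinase, fell from 33.5 ± 1.53 to 18.2 ± 0.636 CPM (-0.88), and Trex1, a DNA exonuclease, fell by 0.76 on the log2 scale. None of the 12 was called for the knockdown at baseline. In Dnmt3a1-shRNA Socs1, Irf2bp2, Cyld and Trex1 were called in the same direction, and Tnfaip3 (0.57) rose and Irf2bp1 (-0.77) fell with bicuculline.

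**Figure D5:**
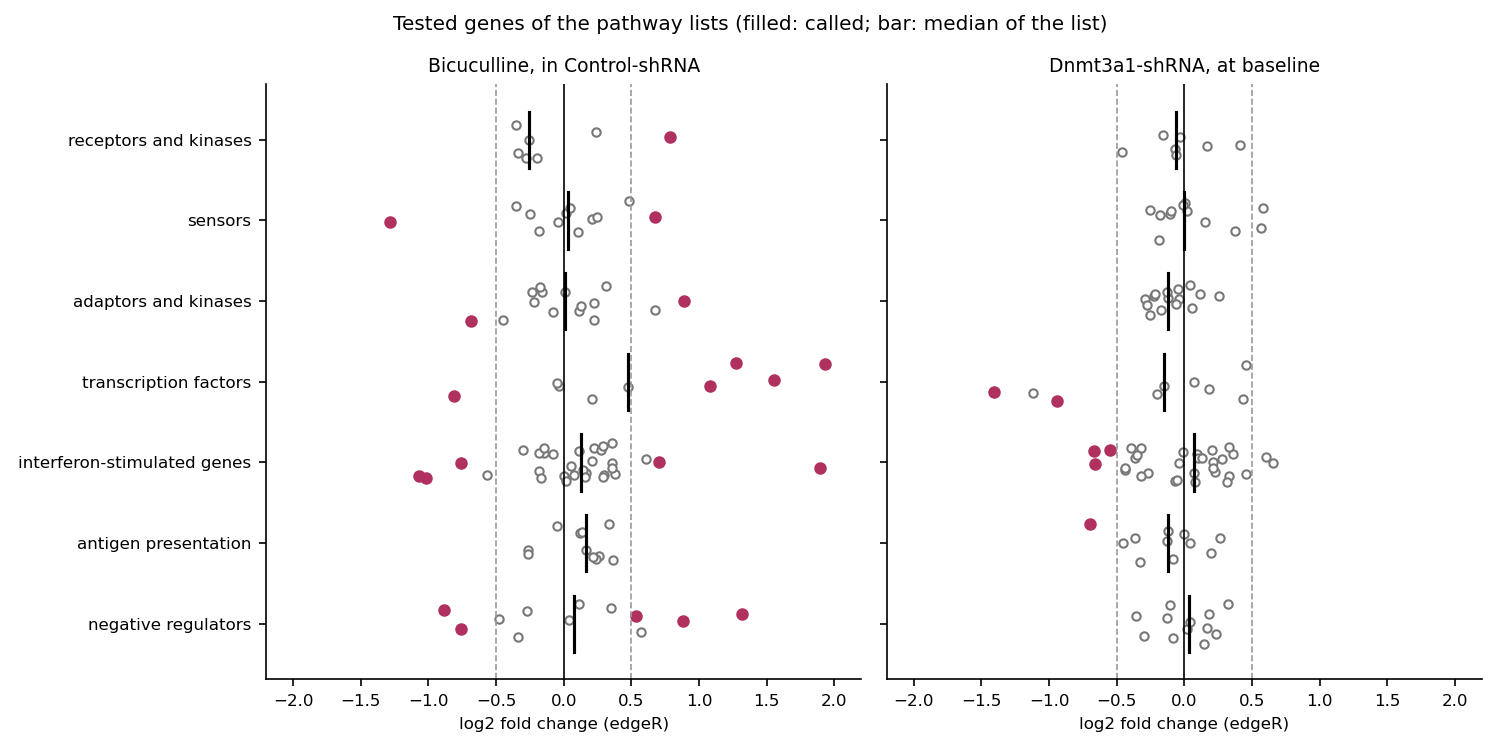
Log2 fold change (x axis) of the tested genes of 7 pathway lists (y axis), for bicuculline in Control-shRNA and for the knockdown at baseline. Filled points are called, black bars mark the list medians and dashed lines a value of 0.5 in either direction. Called genes lie on both sides for bicuculline, 12 higher and 8 lower, and on the lower side alone, 6 genes, for the knockdown.

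Markers of microglia, cells rich in interferon pathway RNA, were low. Of 16 markers 11 passed the filter, and their sum over the list lay at 19.8 to 21.4 CPM in Control-shRNA at baseline and 30.6 to 36.8 CPM with bicuculline, and in Dnmt3a1-shRNA at 15.9 to 19.9 and 28.6 to 32.9 CPM. None of the 16 was at 0 throughout a group, while the defining markers Cx3cr1, at 0 to 0.178 CPM, and P2ry12, at 0 to 0.284 CPM, were near the floor in every library. Within the list Cd68, a lysosomal protein, was at 2.37 to 2.71 CPM at baseline and 11.8 to 15.4 CPM with bicuculline in Control-shRNA. For the knockdown 1 of the 11 tested markers was called lower and 0 higher, both at baseline and with bicuculline, and the list medians were -0.17 and 0.15 on the log2 scale. Astrocyte markers summed to 729 to 950 CPM in Control-shRNA and 745 to 1101 CPM in Dnmt3a1-shRNA at baseline, markers of the oligodendrocyte lineage to 113 to 203 and 120 to 218 CPM, and those of fibroblasts and vessels to 56.7 to 87.6 and 65.6 to 108 CPM. The ranges of these sums overlapped, while the median log2 fold change of the knockdown over the 10 astrocyte markers was 0.40 at baseline and 0.41 with bicuculline, with 1 of them called higher in each, and over the 11 tested markers of fibroblasts and vessels 0.31 and 0.20. The part of these cell types in the values of the 9 genes was not tested.

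The profile of Stat2 over the 16 libraries was most like that of Ccdc43, Nr3c2, the mineralocorticoid receptor, and Zfp286 (Pearson r of log2 CPM 0.98, 0.97 and 0.97) among 13880 genes of at least 1 CPM. That of Ifnar1 was most like Ralgps2 (0.990), Arhgap12 (0.985) and Rcor3 (0.984). Within the 8 tested genes Stat2 was closest to Ifnar1 (r = 0.81) and Irf9 (r = 0.71), and the sensors ran against it (r = -0.60 for Ifih1, -0.57 for Ddx58 and -0.49 for Eif2ak2). These values describe 16 libraries in 4 groups, so they carry the shared differences between groups.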

How the data were processed

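Per the methods and the submitters' processing notes, the authors trimmed 100 bp paired-end reads with Trim Galore 0.6.4 and quantified them with kallisto on GRCm38.p6. They deposited, per gene and library, estimated counts that are not scaled, and TPM. The notes and the methods give kallisto different version numbers. Whether the counting used strand is not given in the sources used here. Identifiers were matched to GENCODE M21 without version (55144 of 55385), and all 204 listed symbols were found.

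Counts were rounded and fitted with edgeR 4.0.16 in R 4.3.3 (TMM scaling, filterByExpr by group, 1 quasi-likelihood model of all 16 libraries without a block). The study itself used voom with limma, which is among the alternatives below. p-values were adjusted by Benjamini-Hochberg over 17222 genes. Calls needed an adjusted p below 0.05 with an absolute log2 fold change above 0.5, or for the interaction the adjusted p alone. CPM are TMM-scaled. The test was checked on simulated counts for 1 comparison, bicuculline in Control-shRNA. Of genes with a simulated log2 change of 1 in either direction, 77 of 98 were called in the right direction. At a change of 0.75 it was 67 of 96, so some changes of this size are missed. Among the unchanged genes 2 were called. Exact permutation tests compared log2 CPM, with 0.02 CPM added for Irf7. Alternatives were voom with limma 3.58.1, DESeq2 1.42.0, other scalings, filters, units and fold thresholds, the replicate block and each library left out.

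The 9 genes and the pathway lists were chosen with earlier results of these data known. Named list genes were, in each comparison, list and direction, up to 3 called genes of the largest change with a mean of at least 1 CPM; Dnmt3a, Fos and single markers were named in addition, and some genes that the rule picked are not reported here. The labels number the replicates 1 to 4 in each group. Libraries with the same number deviated together from the means of their groups, at r = 0.107 to 0.166 for bicuculline in Control-shRNA and 0.170 to 0.309 for the knockdown at baseline, above 0.1 for every number. Libraries of different numbers were not compared in this way, so these values do not establish that the numbers are pairs. The main fit, the fits with a library left out and the permutation tests made no use of the numbers. For bicuculline in Dnmt3a1-shRNA (0.0559 to 0.276) and the knockdown with bicuculline (0.0250 to 0.325) the correlation was not above 0.1 for every number.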

Additional observations from a re-analysis of the deposited data

Results flagged for a closer look

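In 36 groups of 4 libraries (9 genes in 4 groups) the gap between an extreme library and its neighbour was set against the group's range, and 4 groups had a library apart from the others by Dixon's critical value at 95%, where chance alone gives about 1 in 20 groups. Irf7 in Control-shRNA with bicuculline had its highest value, 0.558 CPM, in replicate 1, and the others lay at 0.343 to 0.355 CPM. Irf9 in the same group was highest in replicate 2 at 5.54 CPM, and without that library Irf9 passed the fold threshold. Ifih1 in Dnmt3a1-shRNA with bicuculline was lowest in replicate 4 at 1.07 CPM. Ifnar1 in Dnmt3a1-shRNA at baseline was lowest in replicate 2 at 36.6 CPM, still above every Control-shRNA library. No gene of the 9 had a difference between the 2 bicuculline responses that passed the interaction test.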

How the results depend on the processing

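Over 40 values (8 genes in 5 contrasts) and 392 alternatives other than leaving out a library, 335 kept direction and side of the threshold, 16 passed it newly, 3 lost it and 38 changed sign. With a library left out, 567 of 640 were kept, 14 passed newly, 11 were lost and 48 changed sign. The cause of these changes was not tested. Stat2 under bicuculline was called in all, at -2.26 to -1.80 in Control-shRNA and -2.16 to -1.73 in Dnmt3a1-shRNA. Called genes among the 9 with bicuculline in Control-shRNA were 3 with library sizes only or no fold threshold and 4 on log2(TPM + 0.1). They were 2 on log2(TPM + 1), without the filter, in a fit of only the groups compared and in voom, and 1 to 4 with a library left out. In the fits with a library left out Irf7 passed the filter through its Control-shRNA bicuculline libraries, where it was high. Its calls, in 12 of these 16 fits, are part of the counts of 1 to 4 but are not taken as support. The count of 4 came without Control-shRNA bicuculline replicate 2 and held Stat2, Ifnar1, Irf9 and Irf7 (edgeR adjusted p = 0.0448 for Irf7). All genes called in this comparison were 4397 with library sizes only (1365 higher, 3032 lower), 4455 on log2(TPM + 0.1) (1243 and 3212) and 3679 on log2(TPM + 1) (1052 and 2627). They were 3924 of 37314 without the filter, 3652 of 16514 in the fit of only the groups compared, 3762 in voom and 3619 to 3837 with a library left out. In Dnmt3a1-shRNA 1 of the 9 was called at a threshold of 1, 3 with library sizes only, on both TPM scales and with no fold threshold, where Irf9 was added, and 2 to 3 with a library left out. All genes called there were 5107 with library sizes only, 5119 on log2(TPM + 0.1), 4257 on log2(TPM + 1) and 4271 to 4560 with a library left out. For the knockdown at baseline 2 of the 9 were called with library sizes only and on both TPM scales, 3 with no fold threshold, 0 at a threshold of 1 and 0 to 2 with a library left out. All genes called there were 1119 with library sizes only, 987 on log2(TPM + 0.1), 823 on log2(TPM + 1) and 827 to 1122 with a library left out. For the knockdown with bicuculline 0 of the 9 were called with DESeq2's size factors, at a threshold of 1, on log2(TPM + 1) and in voom, 2 on log2(TPM + 0.1) and with no fold threshold, and 0 to 1 with a library left out. All genes called there were 1024 with DESeq2's size factors, 787 on log2(TPM + 1), 1017 in voom, 1018 on log2(TPM + 0.1) and 864 to 1152 with a library left out. Over all genes the main counts were 3765, 4436, 1004 and 1015, at a threshold of 1 they were 1378, 1681, 175 and 185, and with no fold threshold 7131, 7919, 2809 and 3046. The interaction was called for 17 genes by DESeq2, 3 without the filter, 3 with the replicate block and 0 to 1 with a library left out, against 0. The replicate block changed no call of the 9 genes: it called 1, 2, 1 and 1 of them in the 4 comparisons and 3986, 4612, 1284 and 1338 of all genes. These values changed sign. With bicuculline in Control-shRNA Irf1 was -0.14 on log2(TPM + 0.1) and -0.097 on log2(TPM + 1), and Eif2ak2 -0.15 and -0.090, and -0.11 with library sizes only. In Dnmt3a1-shRNA Irf1 was -0.17 and -0.15 on the TPM scales, Ifih1 -0.037 and -0.015, and Irf3 -0.32 and -0.29, and -0.12 with library sizes only. For the knockdown at baseline Irf1 was -0.064 and -0.037, Irf9 -0.015 and -0.013, and Ddx58 0.090 and 0.075 on the TPM scales, Irf1 -0.060 with library sizes only and -0.015 with the replicate block, and Eif2ak2 0.0070 with the block and 0.011 in voom. With bicuculline Irf1 was -0.10 and -0.090, Irf9 -0.13 and -0.11, and Ifih1 -0.040 and -0.027 on the TPM scales, and Irf1 -0.058 and Ifih1 -0.041 with library sizes only. For the interaction Irf1 was -0.039 and -0.053 and Ddx58 -0.22 and -0.17 on the TPM scales, Irf1 -0.0044 without the filter, and Irf9 0.00086 with at least 10 counts in every library, 0.0043 with library sizes only and 0.0073 in voom. With a library left out the ranges that crossed 0 were -0.082 to 0.22 for Eif2ak2 (bicuculline, Control-shRNA), -0.020 to 0.081 for Irf3 (bicuculline, Dnmt3a1-shRNA), -0.083 to 0.18 for Irf1, -0.18 to 0.021 for Ddx58 and -0.14 to 0.15 for Eif2ak2 (knockdown, baseline), -0.14 to 0.17 for Irf1, -0.087 to 0.20 for Ifih1, -0.12 to 0.038 for Ddx58 and -0.051 to 0.011 for Ifnar1 (knockdown, bicuculline), and -0.10 to 0.21 for Stat2, -0.17 to 0.16 for Irf1, -0.12 to 0.073 for Irf9 and -0.053 to 0.14 for Ddx58 (interaction). The sensors and Irf7 had 3 to 118 counts per library, and the shares of counting error and of spread between cultures in their errors were not separated.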
